A study of Solanum lycopersicum and Solanum pennellii and Solanum pimpinellifolium with 52 samples.

Results

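Shade plants of Solanum pennellii, a green-fruited wild relative of tomato, were compared with sun plants in 6 tissues. The comparison held 12 of the 52 RNA-seq libraries of the series, chosen by their labels: the 6 S. pennellii libraries grown in simulated shade and the 6 grown in simulated sun. Each tissue (inflorescence, leaf, root, seedling, stem and vegetative meristem) had 1 shade library and 1 sun library, and the pair was compared within the tissue.

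All 12 libraries came from strain LA716, grown at 22 °C in a growth chamber under light that averaged 95 µE. The red to far-red ratio was 0.48 in shade and 3.1 in sun. Seedlings were taken from plates, and RNA was extracted with Trizol, per the labels. Reference libraries were 12 of S. lycopersicum strain LA3475 (cultivated tomato), with the same 6 tissues and both lights, and 7 seedling libraries of S. pennellii LA716 grown in standard light, whose RNA was extracted with a Qiagen kit. The labels do not say whether a library held a single plant or a pool, or how long the light treatment lasted. Shade and sun libraries were not repeated within a tissue, so variation between libraries of the same tissue and light was not estimated. The p-values compared within tissues thus set the light difference against its spread over tissues. That spread holds tissue by light together with error, part of which can be technical. In a whole tissue, fewer cells of a type and less RNA per cell cannot be told apart.

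Leaves absorb red light and pass or reflect far-red light, so a low red to far-red ratio marks neighbouring plants. Phytochromes, red and far-red photoreceptors, are less active in such light, and PIF transcription factors then accumulate and switch on genes for auxin synthesis and cell elongation. In many sun-loving plants this shade avoidance response lengthens stems and petioles and brings flowering forward. The table identifies genes by tomato gene model IDs, and the sources used here pair none of them with a name, so the genes of this pathway are not described and no role is given to an ID.

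The libraries held 1860581 reads (sun stem) to 5556059 reads (shade vegetative meristem), and 18503 to 20575 gene models had at least 1 read. Levels were RPKM, the reads of a gene scaled to its length and to the library's total. Differences were shade minus sun on log2(RPKM + 1), a scale that understates the change of genes with low values. Of 28298 gene models, 20839 reached an RPKM of 1 in 2 or more of the 12 libraries and were tested. Every library was most like the other library of its own tissue, with correlations of 0.933 to 0.972 across genes. The margin was smallest for sun seedling, whose correlation was 0.935 with shade seedling and 0.931 with shade vegetative meristem. Tissue accounted for 85.8% of the sum of squares of the log2 levels (5 degrees of freedom) and light for 3.50% (1 degree of freedom). The remainder, tissue by light together with error, held 10.6% (5 degrees of freedom).

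Gene sets taken from S. lycopersicum checked the tissue labels. For each tissue, up to 100 genes with the widest gap to the next tissue in S. lycopersicum were read in S. pennellii, where 80 to 98 of each set were tested. In all 6 sets, both S. pennellii libraries of the named tissue had a higher mean log2 level than the other 10 libraries. The root set was sharpest: its mean log2 level was 6.51 in shade root and 6.67 in sun root, against a highest value of 2.16 elsewhere, in sun seedling.

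Few genes differed between shade and sun by a shared amount in all tissues. In limma, with tissue as a block, 3 genes were higher in shade (0.0144% of genes tested) and 0 were lower (0%), at a Benjamini-Hochberg adjusted p under 0.05 and a difference of at least 2-fold. At an unadjusted p under 0.05 there were 1881 genes (9.03%), 767 of them higher in shade and 1114 lower. This lean changed with the scaling of the libraries, which gave 1257 higher and 735 lower with median ratios, and 994 and 945 with quantile normalization. On reads recovered from the RPKM values, limma voom called 55 genes higher (0.264%) and 6 lower (0.0288%), and limma over all 24 factorial libraries called 2 higher (0.00888%). The 3 calls ended (0 genes) with a pseudocount of 0.1, with median-ratio scaling, with no filter on low values, without robust estimation and without tissue as a block. They also depended on which tissues were in the fit: 12 genes were called without leaf, 4 without root, 1 without inflorescence, and 0 without seedling, without stem or without vegetative meristem.

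Solyc11g063500.1.1 had the largest difference of the 3. Its level in shade was 129 RPKM in vegetative meristem, 166 in seedling, 280 in leaf, 358 in stem, 403 in root and 528 in inflorescence. In sun the same tissues had 6.5, 16.6, 8.39, 59.7, 151 and 43.1 RPKM. Shade was higher in every tissue, and the levels of the groups overlapped at one point, since sun root lay above shade vegetative meristem. Shade averaged 311 ± 150 RPKM and sun averaged 47.5 ± 54.8 RPKM (SD over tissues, n = 6 each), a log2 difference of 3.31 ± 0.37 (SE; limma adjusted p = 0.0317). The adjusted p of this gene ran from 0.00282 to 0.232 over the alternatives that keep tissue as a block. The smallest tissue difference was 1.41 in root and the largest 4.90 in leaf. Behind these values stood 917 reads in shade and 117 in sun.

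Solyc09g050120.1.1 had 9.23 RPKM in shade root, 11 in shade stem, 55.8 in shade leaf, 57.5 in shade vegetative meristem, 137 in shade seedling and 139 in shade inflorescence. In sun it had 1.96 RPKM in root, 2.49 in stem, 13.3 in leaf, 12.9 in vegetative meristem, 9.83 in seedling and 15.2 in inflorescence. Root and stem were lowest and inflorescence highest in both lights, and shade root and shade stem fell within the range of the sun libraries. The log2 difference was 2.40 ± 0.26 (SE; limma adjusted p = 0.0317), from 1.78 in stem to 3.67 in seedling, and the adjusted p was likewise 0.00302 to 0.232 over those alternatives. Root and stem each rested on 1 read in sun, against 5 and 6 reads in shade.

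The third gene, Solyc12g010550.1.1, was named because it completes the count and was picked after its values were seen. It was highest in root, with 256 RPKM in shade against 81.3 in sun. Leaf had 48.9 RPKM in shade against 13.5 in sun, seedling 43.9 against 14.6, stem 39.4 against 13.1 and vegetative meristem 14.9 against 4.73. In these 5 tissues the log2 difference was 1.47 to 1.79, an even rise over levels that differed widely. Inflorescence stood apart, with 1 read in shade and 0 in sun (log2 difference 0.95). Over the 6 tissues the log2 difference was 1.48 ± 0.15 (SE; limma adjusted p = 0.0317, and 0.00302 to 0.168 over those alternatives).

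The gene with the largest mean difference, Solyc09g050110.1.1, did not pass and was also chosen after its values were seen. Its level was 15836 RPKM in shade leaf against 101 RPKM in sun leaf, and 3566 RPKM in shade inflorescence against 82.7 in sun inflorescence. Shade seedling had 2964 RPKM against 281 in sun seedling, and shade vegetative meristem 1891 against 74.9. Shade stem had 866 RPKM against 61.3 in sun stem, and shade root 126 against 37.3 in sun root. The sun libraries, at 37.3 to 281 RPKM, were less spread than the shade libraries, at 126 to 15836 RPKM. Its mean log2 difference was 4.38 ± 0.56 (SE; limma adjusted p = 0.0649), with 15699 reads in shade and 378 in sun, and voom called it (adjusted p = 0.000296, the lowest of a range up to 0.336 over the alternatives that keep tissue as a block).

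**Figure D1:**
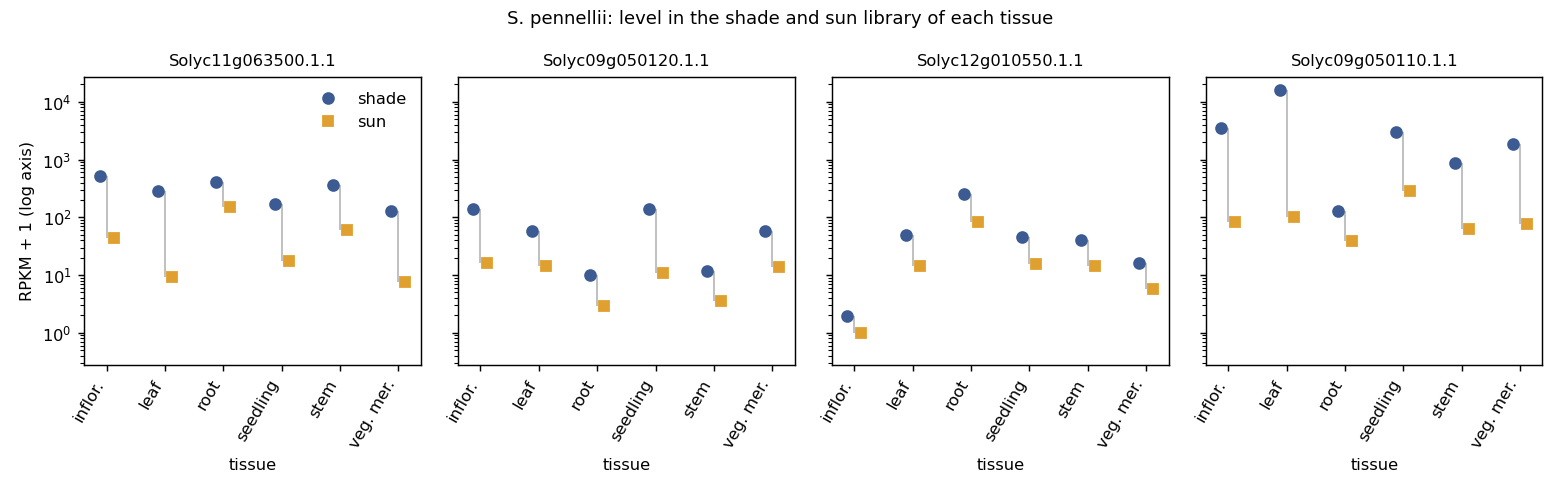
Level (RPKM + 1, log axis) of 4 genes in S. pennellii, by tissue on the x axis, with circles for the shade library and squares for the sun library. In all 4 genes shade lies above sun in every tissue, by a log2 difference of 0.95 to 7.28.

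No gene was called lower in shade by limma. The genes that fill the places of the naming rule for that direction did not pass. Solyc04g025120.1.1 had a log2 difference of -1.88 ± 0.37 (SE; limma adjusted p = 0.247), at 8.41 ± 10.2 RPKM in shade against 21.7 ± 10.3 in sun (SD, n = 6 each). Its leaf levels hardly differed, at 27.7 RPKM in shade and 30.2 in sun, and it had 0 reads in shade stem. Solyc04g072190.2.1 had a log2 difference of -1.63 ± 0.35 (limma adjusted p = 0.264), with 3.15 ± 3.43 RPKM in shade and 8.84 ± 2.96 in sun. Both were low, with 28 and 18 reads over the 6 shade libraries, against 68 and 37 over the sun libraries.

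The tissues agreed in direction for few genes. Among 20839 genes tested, 343 were higher in shade in all 6 tissues (1.65%) and 632 were lower in all 6 (3.03%). With a mean difference of at least 2-fold added, 56 were higher (0.269%) and 25 were lower (0.12%). Of the 17266 genes with no zero difference, 4509 split evenly, 4768 were higher in 2 tissues and lower in 4, and 2860 were higher in 4 and lower in 2. The one-way counts of any size moved with the scaling of the libraries: median-ratio scaling gave 632 higher and 404 lower, quantile normalization 469 and 541, and subtraction of each tissue's median difference 626 and 494. With the 2-fold condition, more genes were higher than lower under each of these (73 against 19, 65 against 17 and 98 against 22), but not with a pseudocount of 0.1 (86 against 90). With 5 tissues in place of 6 the condition is easier to meet. It was met by 75 higher and 82 lower without inflorescence, 62 and 60 without leaf, 92 and 53 without root, 78 and 39 without seedling, 76 and 30 without stem, and 93 and 45 without vegetative meristem.

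Correlations across genes between the differences of 2 tissues were weak. Over the 15 pairs of tissues, which share no library, Pearson's r ran from -0.02 to 0.18 with a median of 0.11, and Spearman's rho from -0.08 to 0.20 with a median of 0.06. Stem with vegetative meristem (r = 0.18), seedling with vegetative meristem (0.16) and seedling with stem (0.16) were the most alike, and inflorescence with root the least (-0.02). Genes are not independent replicates, and low genes carry large counting errors, so these values are descriptions. Genes past 2-fold in both tissues of a pair went the same way in 50.2% (inflorescence with root, 261 alike and 259 opposite) to 70.6% (stem with vegetative meristem, 322 alike and 134 opposite). Of all genes tested, 11359 (54.5%) were past 2-fold in no tissue, 5417 (26%) in 1 tissue and 2022 (9.70%) higher in some tissue and lower in another. Past 2-fold in all 6 tissues were 20 genes higher in shade (0.096% of genes tested) and 0 lower (0%). By definition these 20 are among the 56 genes higher in all 6 tissues by 2-fold on average. Of those 56, 30 vary together over the other libraries of the series (groups A and B), and 19 of the 20 are in these groups.

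**Figure D2:**
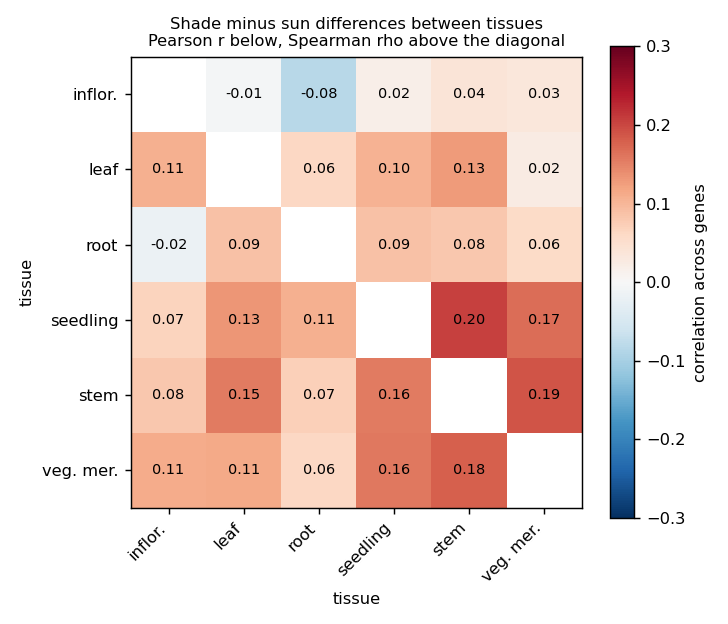
Correlation across 20839 genes of the shade minus sun log2 difference between tissues of S. pennellii, with Pearson's r below the diagonal and Spearman's rho above it, and both axes listing tissues. The highest Pearson value is 0.18 (stem with vegetative meristem), and the lowest is -0.02 (inflorescence with root).

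The balance of higher and lower genes differed between tissues, with 1 library per light and no test. Leaf had 2012 genes past 2-fold higher in shade (9.65%) and 1200 lower (5.76%), and inflorescence had 1436 (6.89%) and 782 (3.75%). Seedling and stem leaned the other way, with 1039 higher (4.99%) and 2383 lower (11.4%) in seedling, and 986 (4.73%) and 2354 (11.3%) in stem. Root had 1141 (5.48%) and 1057 (5.07%), and vegetative meristem had the fewest, 533 (2.56%) and 751 (3.6%). The 2 meristem libraries were the most alike of any tissue and also held many reads. The median difference over all genes ran from -0.20 in stem to 0.12 in leaf. Median-ratio scaling, which brought this median to 0.00 or 0.01 in every tissue, gave 1514 higher and 1981 lower in leaf, 1516 and 1274 in stem, 743 and 544 in vegetative meristem, 1328 and 2015 in seedling, 1144 and 772 in root, and 1255 and 726 in inflorescence. The direction of the split in leaf, stem and vegetative meristem thus changed with the scaling. Quantile normalization gave 1605 higher and 1763 lower in leaf, 1440 and 1336 in stem, 679 and 575 in vegetative meristem, 1565 and 1769 in seedling, 1137 and 894 in root, and 1119 and 943 in inflorescence.

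**Figure D3:**
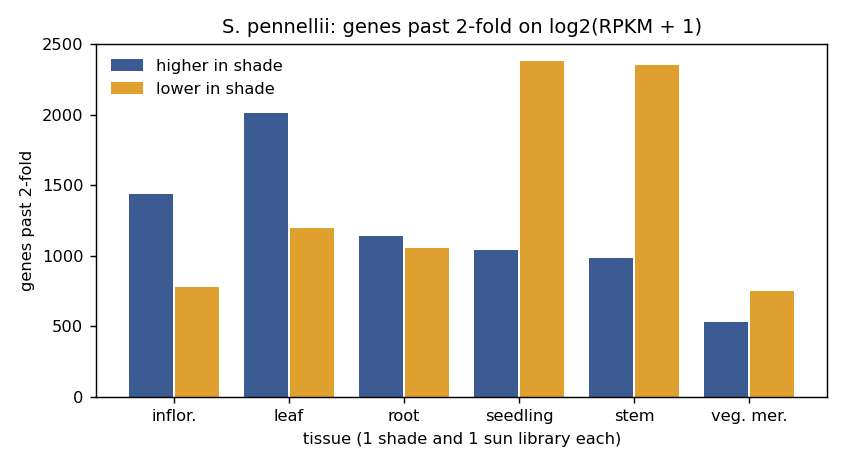
Number of genes past 2-fold between the shade and sun library of each S. pennellii tissue (y axis, genes; x axis, tissue), with genes higher in shade left of genes lower in shade. Leaf and inflorescence have more higher genes (2012 and 1436), and seedling and stem more lower genes (2383 and 2354), on the deposited RPKM values.

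Many of these genes are low. Among genes with at least 50 reads in the pair of libraries, leaf had 844 of 11232 higher in shade (7.51%) and 458 lower, and seedling had 252 of 10463 higher and 697 lower (6.66%). In inflorescence, root, stem and vegetative meristem, 84 to 206 of these genes were higher and 74 to 495 lower.

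The genes with the largest differences within a tissue varied in how far other tissues shared them. Some were past 2-fold the opposite way elsewhere, such as the root genes Solyc09g011080.2.1 and Solyc02g063000.2.1 (lowest log2 difference in other tissues -2.19 and -1.52). Folds here are ratios of RPKM in 1 library against 1 library, with exact 95% intervals that cover counting error only, and against 0 reads a floor of 3 reads was used. In inflorescence, Solyc10g047410.1.1 had 68 reads in shade (68.2 RPKM) and 0 in sun, at least 21.1-fold higher. Solyc01g017040.1.1 had 106 reads in shade and 1 in sun, a ratio of 98.6 with an interval of 17.3 to 3933. These inflorescence genes were also past 2-fold higher in 3 and 4 of the other tissues. The lowest log2 difference elsewhere was -1.27 for Solyc10g047410.1.1, past 2-fold lower, and -0.44 for Solyc01g017040.1.1. Lower in shade inflorescence were Solyc06g073750.2.1, at 3.03 RPKM in shade against 34.7 in sun (11.5-fold lower, interval 6.74 to 21), and Solyc03g098790.1.1, at 6.32 RPKM against 58.0 (9.18-fold lower, 4.90 to 19). The first was at 0.672 RPKM or less in the other tissues of S. pennellii, too low to pass 2-fold there, and the second was past 2-fold lower in none of them. In S. lycopersicum inflorescence both were higher in shade, at 54.6 RPKM against 21.3 in sun, and 192 against 47.2.

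Leaf held the largest ratios among the genes named with reads in both lights. Solyc11g013780.1.1 reached 7346 RPKM in shade leaf against 17.9 in sun leaf, 409-fold higher (interval 244 to 750). Solyc05g016120.1.1 had 6945 RPKM in shade leaf and 24.8 in sun leaf, 280-fold higher (213 to 377). Both were past 2-fold higher in the other 5 tissues too, at levels of at most 165 and 221 RPKM there. Lower in shade leaf were Solyc12g010980.1.1, with 4 reads in shade and 248 in sun (41.1-fold lower, 15.9 to 152), and Solyc03g121900.1.1, with 3 reads in shade and 93 in sun (ratio 20.6, 6.82 to 102). The first was past 2-fold lower in no other tissue, and the second in 1. The highest log2 difference of the second elsewhere was 1.36, past 2-fold higher.

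In root, Solyc09g011080.2.1 had 110 reads in shade and 2 in sun, a ratio of 51.8 (interval 14 to 433). In S. lycopersicum root the same gene had 7.17 RPKM in shade and 337 in sun, the opposite order. Solyc02g063000.2.1 had 68 reads in shade root and 2 in sun root, a ratio of 32.0 (8.53 to 270). Both root libraries, at 19.1 RPKM in shade and 0.597 in sun, were below the 29.6 to 114 RPKM of the 7 standard-light seedlings. Solyc03g116390.2.1 had 3.31 RPKM in shade root and 137 in sun root (41.4-fold lower, 15.8 to 154).

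One gene met the naming rule in both root and seedling. Solyc10g078770.1.1 had 0 reads in shade root and 66 in sun root (at least 23.3-fold lower), and 0 reads in shade seedling and 111 in sun seedling (at least 34.1-fold lower). It was at 0 in 9 of the 12 libraries and in 5 of 7 standard-light seedlings, where its highest value was 30.4 RPKM. Solyc11g010520.1.1 was likewise at 0 in 9 libraries, with 0 reads in shade seedling and 545 in sun seedling (601 RPKM, at least 168-fold lower). It had 0 reads in both S. lycopersicum seedling libraries and in 6 of the 7 standard-light seedlings, whose highest value was 22.4 RPKM. Sun seedling thus stood above every other seedling library of S. pennellii for this gene.

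Higher in shade seedling were Solyc12g006750.1.1, with 71 reads in shade and 1 in sun (ratio 77.0, interval 13.4 to 3083), and Solyc01g097720.1.1, with 142 RPKM in shade and 4.95 in sun (28.7-fold, 12.9 to 79.5). The standard-light seedlings had 207 to 328 RPKM of the first and 38.8 to 373 of the second. Sun seedling, at 1.4 and 4.95 RPKM, was below all 7 of them for both genes, and shade seedling, at 108 RPKM, was also below them for the first.

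In stem, Solyc08g008230.2.1 had 30 reads in shade and 1 in sun (ratio 22.1, 3.67 to 900), and Solyc04g014410.2.1 had 57 and 1 (ratio 41.9, 7.23 to 1685). The second gene was also higher in S. lycopersicum shade stem, with 30.1 RPKM against 1.83 in sun stem. Lower in shade stem were Solyc12g009110.1.1, with 1 read in shade and 53 in sun (ratio 72.1, 12.4 to 2899), and Solyc05g052670.1.1, with 3.71 RPKM in shade and 41.9 in sun (11.3-fold, 6.33 to 21.9). In vegetative meristem, Solyc12g008560.1.1 was at 29.6 RPKM in shade against 227 in sun (7.68-fold lower, 5.34 to 11.3), and Solyc07g064600.2.1 had 2 reads in shade and 33 in sun (ratio 25.5, 6.51 to 219). The largest differences upward there were those of Solyc01g007710.2.1, with 2168 RPKM in shade and 81.6 in sun (26.6-fold, 20.4 to 35.2), and Solyc09g050110.1.1 (25.3-fold, 19.2 to 33.9), which were past 2-fold higher in all other tissues.

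Of the 56 genes that were higher in all 6 tissues by 2-fold on average, 30 varied together in other libraries. Clustering on the 40 libraries outside the comparison, after the data were seen, gave 2 groups and left 26 genes in neither. Group A had 21 genes (median pairwise r 0.733, lowest 0.261) and group B had 9 (0.705, lowest 0.468). How often other genes of like level would group in this way was not tested. Group A included Solyc09g050110.1.1 and Solyc09g050120.1.1, and group B included Solyc11g063500.1.1. IDs with a shared start, which lie in the same stretch of the gene model numbering, made up 21 of the 56. The most frequent start, Solyc01g007, had 7. How many would share a start among as many genes taken from all those tested was not counted, so this count is a description only. What these gene models encode, and whether they are repeated or organelle sequences, is not in the sources used here, and its part in the shares below was not tested. Near-identical copies may share reads, and how such reads were counted is not given in the sources used here.

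Group A took 2.97% of reads in shade leaf, against 0.0301% in sun leaf. The other shade tissues had 0.323% (inflorescence), 0.299% (seedling), 0.234% (vegetative meristem), 0.0785% (stem) and 0.019% (root). The sun libraries of these tissues had 0.0129%, 0.0373%, 0.0258%, 0.0155% and 0.00592%. Shade lay above sun in each tissue, and of the shade libraries only root fell within the range of the sun libraries. The median log2 difference of the 21 genes was 6.63 in leaf, 3.98 in inflorescence, 2.63 in seedling, 2.42 in vegetative meristem, 1.62 in root and 1.38 in stem.

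Group B took 0.0983% (vegetative meristem) to 1.59% (leaf) of reads in shade, with a median of 0.337%, and 0.0117% (leaf) to 0.141% (root) in sun, with a median of 0.0281%. Its median log2 differences ranked the tissues in the same order: 6.36 in leaf, 4.04 in inflorescence, 2.63 in seedling, 2.54 in vegetative meristem, 1.68 in root and 1.51 in stem. Since the rule that chose the genes used these libraries, the height of these values is no test. The 26 other genes had medians of 0.87 in vegetative meristem to 1.86 in leaf, smaller than those of groups A and B in every tissue but stem (1.52).

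**Figure D4:**
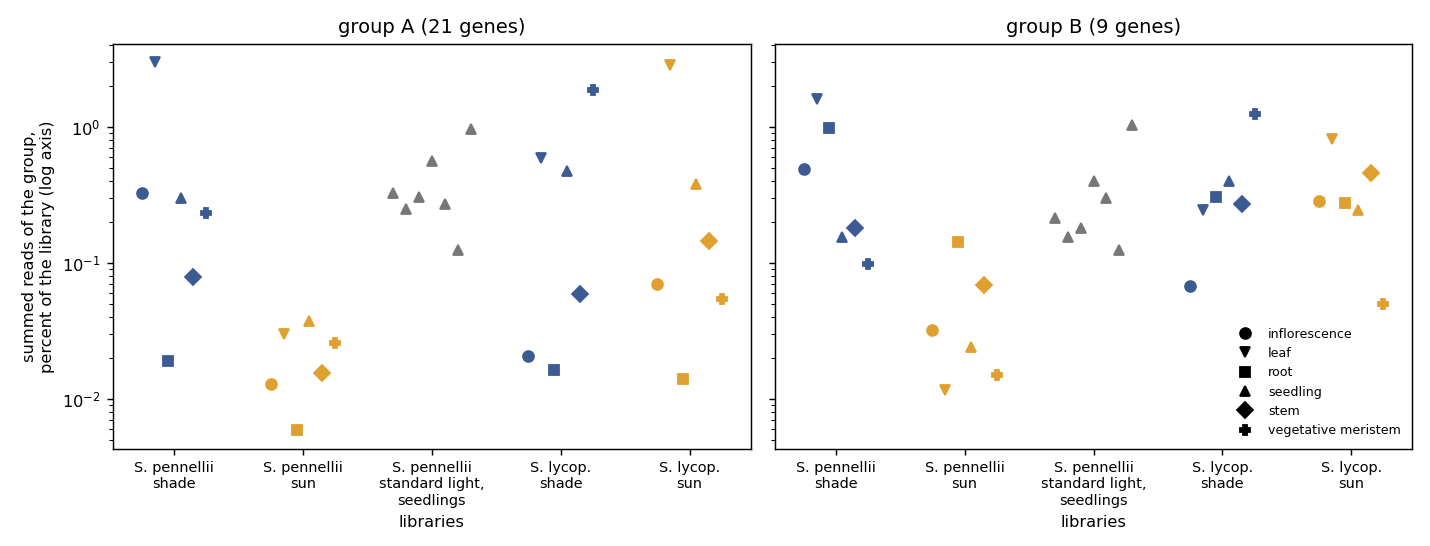
Summed reads of group A (left) and group B (right) as a percent of the library's reads (y axis, log axis), 1 point per library, with the shape giving the tissue and columns giving species and light. The S. pennellii sun libraries reach at most 0.0373% in group A, and the standard-light seedlings of the same strain start at 0.125%.

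The standard-light seedlings of the same strain give an outside range to set beside the shade and sun seedling. In group A, shade seedling (0.299% of reads) lay inside and sun seedling (0.0373%) below the range of these 7 libraries, which was 0.125% to 0.958%. In group B, shade seedling (0.156%) again lay inside and sun seedling (0.0242%) below their range, 0.125% to 1.04%. By gene, shade seedling was within their range for 18 of 21 genes in group A, 8 of 9 in group B and 15 of the 26 others, against 57.4% of all genes tested. It was above all 7 for 2, 0 and 9 genes, against 16.5% of all genes. Sun seedling was below all 7 for 20 of 21, 9 of 9 and 12 of 26, against 18.1% of all genes tested. For the 25 genes lower in shade the picture was the other way round, with shade seedling below all 7 for 13 genes and sun seedling for 5, against 26.1% and 18.1% of all genes. The choice of genes used both seedling libraries of the comparison. A low place of the lower library is thus partly built in, and these counts are no test. The standard-light seedlings came from another experiment with another extraction kit, whose part in these values was not tested.

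In S. lycopersicum the same genes did not move one way. All 21 genes of group A and all 9 of group B were higher in shade in vegetative meristem, with median log2 differences of 3.68 and 3.12. In inflorescence 19 of 21 and 7 of 9 were lower in shade, in leaf 13 and 8, and in stem 13 and 9, where 55.3%, 26.3% and 30.4% of all genes tested were lower. In seedling 16 of 21 and 6 of 9 were higher, in root 13 and 6, and for the mean of 6 tissues 15 and 4, where 58.0%, 34.4% and 61.2% of all genes tested were higher. In vegetative meristem 40.7% of all genes were higher. Group A took 1.85% of reads in S. lycopersicum shade vegetative meristem against 0.0545% in sun, but 0.589% in its shade leaf against 2.84% in its sun leaf. The highest share of group A was 2.97% in S. pennellii shade, 1.85% and 2.84% in S. lycopersicum shade and sun, and 0.0373% in S. pennellii sun. In both groups the S. pennellii shade and sun libraries overlapped. For group B, sun root (0.141%) lay above shade vegetative meristem (0.0983%). For group A, shade root (0.019%) lay below sun leaf (0.0301%), sun seedling (0.0373%) and sun vegetative meristem (0.0258%). Both groups were chosen for being lower in sun in each S. pennellii tissue, so their low values in those libraries are no test. Solyc09g050110.1.1 ran in S. lycopersicum from 68.4 RPKM in sun root to 29062 RPKM in sun leaf.

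Without groups A and B, limma called 0 genes (lowest adjusted p = 0.0506), with 1744 at an unadjusted p under 0.05, and voom called 24 higher and 5 lower. Their removal takes out 2 of the 3 called genes, and the third, Solyc12g010550.1.1, kept a log2 difference of 1.5 at that adjusted p of 0.0506. This alternative was added after the data were seen. Of the 55 genes that voom called higher in the whole table (0.264% of genes tested), 17 were in group A and 9 in group B. The 30 genes of these groups came from the 56 chosen as higher in every tissue of the same libraries, so this overlap is no test. The median correlation between tissues was 0.06 without these 2 groups, against 0.11 with them. Their genes were chosen for being higher in shade in every tissue, so the drop follows at least in part from that choice and is no test.

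The 25 genes lower in all 6 tissues by 2-fold on average were smaller in change, with a median of the mean difference of -1.11 against 2.26 for the 56 higher genes. Their mean RPKM had a median of 6.39 in shade and 12.3 in sun, against 87.0 in shade and 11.2 in sun for the 56 higher genes. Their median log2 difference was -1.47 in stem, -1.12 in seedling, -1.0 in root, -0.96 in leaf, -0.92 in inflorescence, and smallest in vegetative meristem at -0.72. In S. lycopersicum shade they were not one way: 21 of the 25 were higher in leaf, 18 in seedling, 16 in stem, 12 in vegetative meristem, 8 in root and 5 in inflorescence. Of all genes tested, 65.2%, 58.0%, 60.5%, 40.7%, 34.4% and 38.5% were higher in those tissues. Together they took 0.0105% to 0.0798% of reads in shade and 0.022% to 0.186% in sun.

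The tissue gene sets differed between the shade and sun library of some tissues, most of all in leaf and seedling. In leaf, the 92 genes of the leaf set had a median log2 difference of 0.61 against 0.12 for all genes, with 27 past 2-fold higher and 6 lower. The vegetative meristem set moved the other way there, with a median of -0.96 and 48 of 98 genes past 2-fold lower, and took 0.348% of reads in shade leaf against 0.749% in sun leaf. The root set, near 0 in leaf, had 32 of 95 genes past 2-fold higher and 0 lower, with 44 genes at 0 reads in shade leaf and 77 in sun leaf. In seedling, the leaf set had a median of -0.89 against -0.09 for all genes, with 42 of 92 genes past 2-fold lower, while the seedling set had a median of 0.30. The leaf set thus went in opposite directions in leaf and in seedling.

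Inside their own tissue, the inflorescence set (-0.24) and the root set (-0.24) had medians below that of all genes (0.00 and -0.02), and the stem set (0.00) lay above it (-0.20). The vegetative meristem set had a median of -0.10 in vegetative meristem, close to the -0.13 of all genes. After median-ratio scaling, which shifts all genes of a library alike, the set had 0.10 and all genes 0.00. The share of each tissue's cells or stages in a library was not measured, and its part in the per-tissue counts above was not tested.

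**Figure D5:**
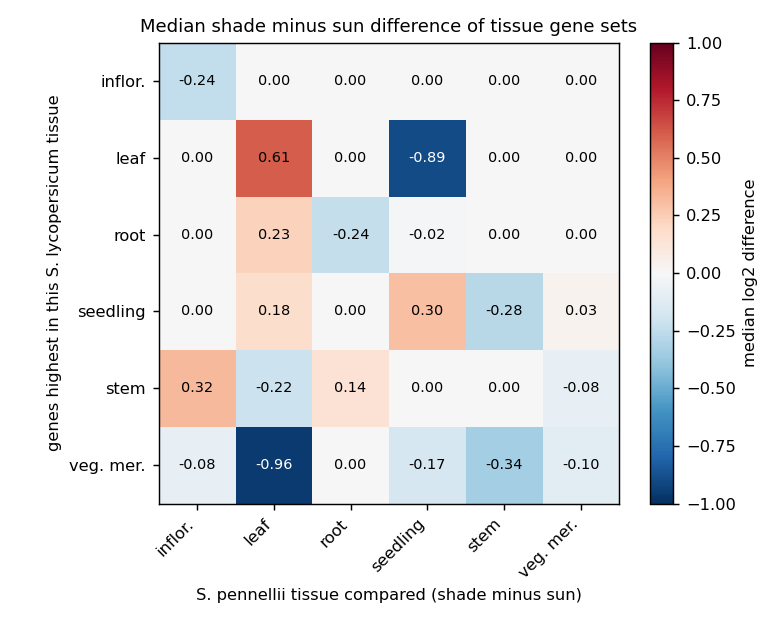
Median shade minus sun log2 difference in S. pennellii (x axis, tissue compared) of gene sets chosen as highest in 1 tissue of S. lycopersicum (y axis, set). Values far from 0 are the leaf set in leaf (0.61) and in seedling (-0.89) and the vegetative meristem set in leaf (-0.96).

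The light responses of the 2 species were compared directly in 24 libraries. For the difference between the S. pennellii and S. lycopersicum responses, limma called 0 of 22512 genes higher (0%) and 0 lower (0%), voom called 0, and 1591 genes (7.07%) had an unadjusted p under 0.05. The lowest adjusted p was 0.539, that of Solyc11g063500.1.1, whose log2 response was 3.31 in S. pennellii and 0.03 in S. lycopersicum (interaction 3.27 ± 0.66 SE). Without root, 1 gene was called. Across 19915 genes tested in both species, the mean difference over tissues correlated at r = -0.10 between them. By tissue, r was 0.11 in vegetative meristem and -0.06 to -0.18 in the other 5, so vegetative meristem was the exception in sign.

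S. lycopersicum had fewer genes that moved one way by 2-fold on average, 22 higher in shade (0.103% of 21317) and 6 lower (0.0281%). S. pennellii had 56 higher and 25 lower, but 26 higher and 23 lower without groups A and B, which were picked from the 56. Of the 22, 20 were tested in S. pennellii, where 9 had a mean difference above 0 and 11 below, with a median of -0.14 against -0.06 for all genes. Of the 6 lower genes, 5 were tested in S. pennellii. All 5 had a mean difference above 0, with a median of 0.35 against -0.06 for all genes. The share of all genes with a mean above 0 was not counted, and 5 genes are too few for a conclusion on the species. Leaving out a tissue moved the median of the 5 genes between 0.10 (without seedling) and 0.60 (without root). That of the 20 genes moved between -0.32 (without stem) and -0.03 (without seedling). None of the 25 was past 2-fold in S. pennellii except 1 in each direction among the 20, where 0.835% of all genes tested had a mean past 2-fold higher and 0.494% lower. The correlation between the tissues of S. lycopersicum ran from -0.24 to 0.29 with a median of -0.01.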

How the data were processed

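RNA from 12 libraries of S. pennellii (6 tissues in shade and in sun) was analysed as RPKM. The authors deposited one table of RPKM for 52 libraries; per the submitters' processing notes, BWA 0.5.7, which aligns short reads, and CASAVA 1.4 were used. How reads were counted, on which reference, with or without strand, and with what rule for multiple matches is not given in the sources used here. Each factorial label carries several run records, and pooling is not stated. Where S. pennellii differs in sequence from that reference, its reads may be undercounted.

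Whole reads were recovered from the steps of the RPKM values (100% of values above 0 within 0.02 reads, in 25942 gene models). Library totals over the series were 1477052 to 5556059 reads. At low counts the precision is that of a few reads, and intervals and floors of 3 reads cover counting error only.

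Tests used limma 3.58.1 in R 4.3.3 on log2(RPKM + 1), with a trended robust prior, tissue as a block (5 residual degrees of freedom) and Benjamini-Hochberg adjustment over all 20839 genes with an RPKM of 1 or more in 2 libraries. A call needed an adjusted p under 0.05 and a log2 difference of at least 1. The species by light term came from 24 libraries (10 residual degrees of freedom). The blocks follow the tissue labels: deviations of the 2 libraries of a tissue from the means of their lights correlated at 0.558 to 0.899, above any other tissue. Scripts were tested on simulated data.

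Named genes were the 2 per direction with the largest difference among called genes moving one way in all tissues with a mean RPKM of at least 5, filled from genes at an unadjusted p under 0.05. Within a tissue they were the 2 per direction with the largest difference and at least 30 reads and an RPKM of 5 in the higher library. The gene groups, sets and lists were chosen with earlier results of these data known. Of the table's IDs, 0 matched the RefSeq gene table, so lists planned by gene name were not used and no sequence is shown. Alternatives covered the pseudocount, the scaling, the filter, the block, voom, robust estimation, the number of libraries, leaving out each tissue, and removal of the co-varying genes.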

Additional observations from a re-analysis of the deposited data

Results flagged for a closer look

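Dixon's 95% criterion for 6 values was applied to 25 groups of values, and 3 had a value apart from the rest; chance gives about 1 in 20. Group A took 2.97% of reads in shade leaf, far above the other 5 shade libraries. Solyc12g010550.1.1 had a shade minus sun log2 difference of 0.95 in inflorescence, below its other 5 tissues, and that value rests on 1 read in shade and 0 in sun. Solyc04g072190.2.1 had a log2 level of 2.18 in sun inflorescence, from 2 reads, below the other 5 sun libraries. The cause of each was not tested.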

How the results depend on the processing

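The 3 genes called became 0 with a pseudocount of 0.1, with median-ratio scaling, with no filter, without the replicate block of tissues or without robust estimation, and 61 with voom; leaving out a tissue gave 0 to 12. Without the 30 co-varying genes it was 0, also with median-ratio scaling, and 29 with voom. Without the block, 192 genes had an unadjusted p under 0.05. The interaction count was 0 to 1 when a tissue was left out. Genes one way by 2-fold were 86 higher and 90 lower with a pseudocount of 0.1, 26 higher without the co-varying genes, and 62 to 93 higher and 30 to 82 lower with a tissue left out. With a pseudocount of 0.1, genes past 2-fold were 2339 higher and 1373 lower in inflorescence, 2279 lower in leaf, 1803 higher and 1822 lower in root, 1686 higher in seedling, 1622 higher in stem, and 1316 higher and 1610 lower in vegetative meristem. With an RPKM minimum of 5 they were 928 higher and 497 lower in inflorescence, 603 lower in root, 681 higher in seedling, 627 higher in stem, and 315 higher and 488 lower in vegetative meristem. Median-ratio scaling gave 1981 lower in leaf, and 1516 higher and 1274 lower in stem; quantile normalization gave 1565 higher in seedling and 1336 lower in stem. The inflorescence set in inflorescence had a median of -0.10 at an RPKM minimum of 5; with median-ratio scaling the stem set in stem had 0.24 and the vegetative meristem set in vegetative meristem 0.10, the opposite sign, where the median of all genes was 0.00. On log2(RPKM + 1) that scaling shifts low genes less than high ones, so a set and all genes can move by unlike amounts. The cause of these changes was not tested. In the fits with the block, the adjusted p of the 3 called genes ran from 0.00282 to 0.232, and their differences kept their sign. The other 197 alternative values of counts and medians kept their direction and their side of the threshold, or stayed within the limits set for them. Depth limits low genes: a tissue has 1 library per light, and a difference under a few reads was not detectable.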
